A study of Mus musculus with 40 samples.

Results

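Gpnmb, Tyrp1 and Myoc are 3 mouse genes tied to glaucoma, and they were followed here by their symbols through 40 RNA-seq libraries of mouse hypothalamus, as 3 of the 23955 gene symbols counted. Old DBA/2J mice are known to develop a pigment-dispersing disease of the iris that is followed by raised eye pressure and loss of the optic nerve. The disease is known to need mutant alleles of Gpnmb and of Tyrp1 that this strain carries. Gpnmb encodes a transmembrane glycoprotein of melanosomes, the organelles that hold pigment, and of macrophages and microglia. Tyrp1 encodes an enzyme of melanin synthesis, and its brown allele colours the coat of DBA/2J. Myoc encodes myocilin, a secreted protein with an olfactomedin domain that is abundant in the drainage tissue of the eye. Mutations in its human counterpart cause an inherited open-angle glaucoma. All 3 genes are therefore best known from the eye, and the values below are their levels in a brain region of the same strains.

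The libraries came from 36 BXD lines, inbred lines that each carry a fixed mosaic of the C57BL/6J and DBA/2J genomes, from the reciprocal hybrids B6D2F1 and D2B6F1, and from the inbred parents DBA/2J and C57BL/6J. Every strain had 1 library, taken at 1 time point in the basal state with no treatment. Age and sex are not given in the sources used here, and the mice carry no engineered allele in the labels. For a BXD line the library was made from pooled RNA of 3 to 6 hypothalami, so differences between animals of a line were averaged before sequencing. Whether RNA of the hybrids and parents was pooled is not given in the sources used here. With 1 library per strain, an interval around a single library's value covers counting error only. The reads carry no molecular identifiers, so reads rather than molecules were counted. In the spread over the 36 lines, genetic differences cannot be told apart from differences in dissection, handling and sequencing.

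Library totals ran between 12231736 counts (BXD55) and 40386035 (BXD51), with a median of 23611913. All 10 markers of hypothalamic neurons, Pomc, Avp, Oxt and Agrp among them, were counted, with a summed level of 358 to 884 CPM (counts per 1000000 counts of the library, scaled) over the lines. The summed level of 8 choroid plexus genes had a median of 112 CPM over the lines and reached 967 CPM in the highest. In bulk tissue, fewer cells of a type cannot be told apart from less RNA per cell.

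Gpnmb lies on chromosome 6, Tyrp1 on chromosome 4 and Myoc on chromosome 1. The DBA/2J allele of Gpnmb is known as a premature stop codon. The reference stretch around that codon is shown because it is the difference for which the gene is known in this cross. It lies in exon 4 of 11 of transcript Gpnmb-201, at chr6:49045355-49045417 of GRCm38 on the forward strand, and the codon, number 150 of the 574 of the coding sequence, is in capitals.
Gpnmb coding stretch: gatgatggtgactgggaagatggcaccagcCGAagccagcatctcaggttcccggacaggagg
A C-to-T change of the first capital makes the codon TGA, a stop. The counts hold no bases, so the allele of a line was not read here.

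The 3 promoters are shown because the pigment-cell factor Mitf is known to act on Tyrp1 through a motif called the M-box, and the same letters were searched in all 3. Each runs over 100 bases before and 30 bases after the annotated start, on the forward strand of GRCm38.p6, with sequences from RefSeq. They span chr6:49036418-49036547 for Gpnmb, chr4:80834113-80834242 for Tyrp1 and chr1:162639050-162639179 for Myoc. Capitals mark the M-box core TCATGTG and the TATA box TATAAA.
Gpnmb promoter: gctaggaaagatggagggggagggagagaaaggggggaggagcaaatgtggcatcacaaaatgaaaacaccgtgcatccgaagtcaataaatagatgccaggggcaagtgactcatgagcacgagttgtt
Tyrp1 promoter: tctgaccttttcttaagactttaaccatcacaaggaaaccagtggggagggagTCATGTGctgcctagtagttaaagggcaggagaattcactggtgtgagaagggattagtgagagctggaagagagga
Myoc promoter: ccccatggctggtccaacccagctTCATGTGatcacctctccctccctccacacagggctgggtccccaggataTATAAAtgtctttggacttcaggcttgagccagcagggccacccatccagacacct
The M-box core occurred 47 bases before the start of Tyrp1 and 76 bases before the start of Myoc, and did not occur in the Gpnmb window. Over windows of 250 bases before to 50 after the start, searched on both strands, 3.77% of 32851 promoters hold TCATGTG. The TATA box stood 26 bases before the start of Myoc and in neither other window, and 13.6% of promoters hold it. The E-box CACGTG was in none of the 3 windows, against 7.15% of promoters, and no matches overlapped each other. These are matches of letters, not measured binding.

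Per kilobase of the longest annotated coding transcript, Myoc had the highest level of the 3 genes over the 36 lines, with a mean of 2.74 CPM per kilobase and a median of 1.42. Gpnmb had a mean of 0.301 and a median of 0.330 CPM per kilobase. Tyrp1 was lowest, with a mean of 0.0757 and a median of 0.0600 CPM per kilobase. The order of the first 2 genes was not the same in every line, since both spread widely.

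Gpnmb parted the BXD lines into separate sets. Over the 36 lines it had 0 CPM at the lowest, 1.22 CPM at the median and 3.79 CPM at the highest, in BXD70, which had 92 reads. The mean was 1.11 ± 1.01 CPM (SD, n = 36). No library of 15 lines held more than 4 Gpnmb reads, and none of the other 21 held fewer than 24.

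No Gpnmb read was counted in BXD55, BXD61, BXD66 or BXD81. At their depths a count of 0 allows up to 0.249 CPM in BXD55, 0.120 in BXD61, 0.124 in BXD66 and 0.143 in BXD81, by the 3-count limit. The highest of the 15 low lines was BXD45 with 3 reads and 0.139 CPM, and the lowest of the 21 high lines was BXD85 with 30 reads and 1.08 CPM. The low lines thus held little or no Gpnmb mRNA by these counts, and no line had an intermediate level.

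That step was 2.39 on the log2 scale, where 2 counts are added before the logarithm. The exact Poisson 95% intervals of the low lines ended at 0.405 CPM or lower, and those of the high lines began at 0.721 CPM or higher. A step of at least 1 log2 unit with 6 or more lines on each side was found in 69 of 14487 genes with a mean of at least 1 CPM, which is 0.476%. Gpnmb was number 29 of them by the width of the step. It was number 23 of the 14487 by the SD of its log2 level, which was 1.94, while counting alone would give an SD of 0.28.

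Gpnmb was counted 9 times in DBA/2J, at 0.342 CPM (exact Poisson 95% interval 0.156 to 0.649). It was counted 37 times in C57BL/6J, at 1.47 CPM (1.04 to 2.03). The DBA/2J value fell inside the empty step between the 2 sets of lines, and the C57BL/6J value fell among the 21 high lines. All 15 low lines were below DBA/2J in CPM, 2 of them with an interval wholly below its interval. Of the other 21 lines, 16 were above C57BL/6J and 5 lay between the parents, and 1 line had an interval wholly above that of C57BL/6J.

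DBA/2J over C57BL/6J, the Gpnmb ratio was 0.232, with an exact conditional 95% interval of 0.0986 to 0.490 that covers counting error only. Among 14630 genes with at least 1 CPM in either parent, 1.00% were lower in DBA/2J by at least 1 log2 unit and 1.58% differed by that much either way. There was 1 library for each parent, so no test of the strains could be made.

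B6D2F1, the hybrid with the C57BL/6J parent named first, had 32 Gpnmb reads and 1.20 CPM (interval 0.820 to 1.69). D2B6F1 had 24 reads and 0.735 CPM (0.471 to 1.09). B6D2F1 lay among the high lines and D2B6F1 inside the step. Both intervals held the mean of the parents, 0.906 CPM. The ratio of B6D2F1 over D2B6F1 was 1.63 with an interval of 0.932 to 2.90, so a difference between the reciprocal crosses was not detectable at this depth. Of 14628 genes, 0.212% differed between the reciprocal crosses by at least 1 log2 unit.

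**Figure D1:**
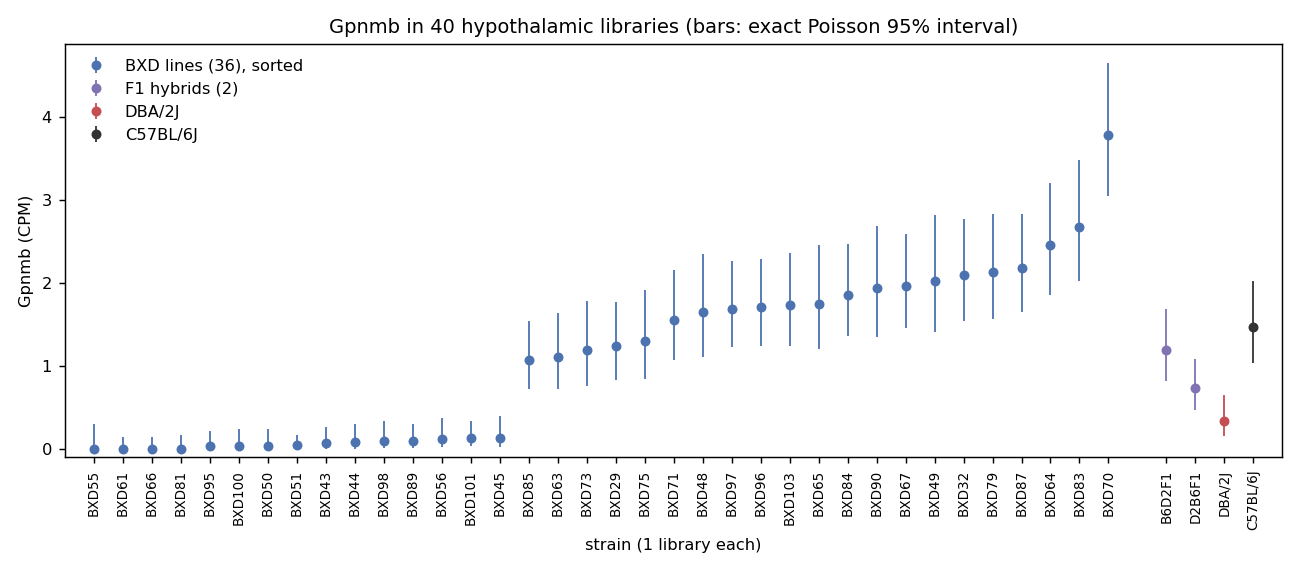
Gpnmb level in CPM (vertical axis) in each of the 40 libraries, with the 36 BXD lines sorted by level, then the F1 hybrids, DBA/2J and C57BL/6J. Points are single libraries and bars are exact Poisson 95% intervals. The 15 low lines end at 0.139 CPM and the 21 high lines begin at 1.08 CPM, with DBA/2J at 0.342 CPM between them.

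Myoc varied as widely as Gpnmb but without a gap. Over the 36 lines it had 0.197 CPM at the lowest, in BXD67 with 5 reads, 2.94 CPM at the median and 24.5 CPM at the highest, in BXD49 with 422 reads. The mean was 5.68 ± 6.28 CPM (SD, n = 36), and the highest line was 124 times the lowest. BXD45 with 19.7 CPM, BXD56 with 19.1 CPM and BXD85 with 15.1 CPM followed BXD49. At the other end 12 lines had 0.939 CPM or less.

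The SD of log2 Myoc was 1.91 over the lines, against 0.13 from counting alone, and was number 26 among the 14487 genes. The widest step between neighbouring lines was 0.66 log2 units, between BXD32 at 0.939 CPM and BXD97 at 1.54 CPM. This step was number 139 among the 14487 genes by width, with 12 lines below it and 24 above. Its width is under the 1 log2 unit taken as a gap, so by that rule the lines were not parted.

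DBA/2J had 62 Myoc reads, or 2.35 CPM (exact Poisson 95% interval 1.81 to 3.02), and C57BL/6J had 231 reads, or 9.18 CPM (8.04 to 10.4). The intervals did not overlap, and the ratio of DBA/2J over C57BL/6J was 0.256 (0.190 to 0.341, counting error only). The lines went past the parents at both ends. In CPM, 15 lines were below DBA/2J, 12 of them with an interval wholly below its interval. Above C57BL/6J were 9 lines, 5 of them with an interval wholly above, and 12 lines lay between the parents.

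B6D2F1 had 85 Myoc reads and 3.19 CPM (2.55 to 3.94), and D2B6F1 had 92 reads and 2.82 CPM (2.27 to 3.45). Both hybrids lay between the parents and nearer to DBA/2J. The mean of the parents, 5.77 CPM, was above both intervals. The ratio of B6D2F1 over D2B6F1 was 1.13 (0.832 to 1.54), a difference not detectable at this depth.

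**Figure D2:**
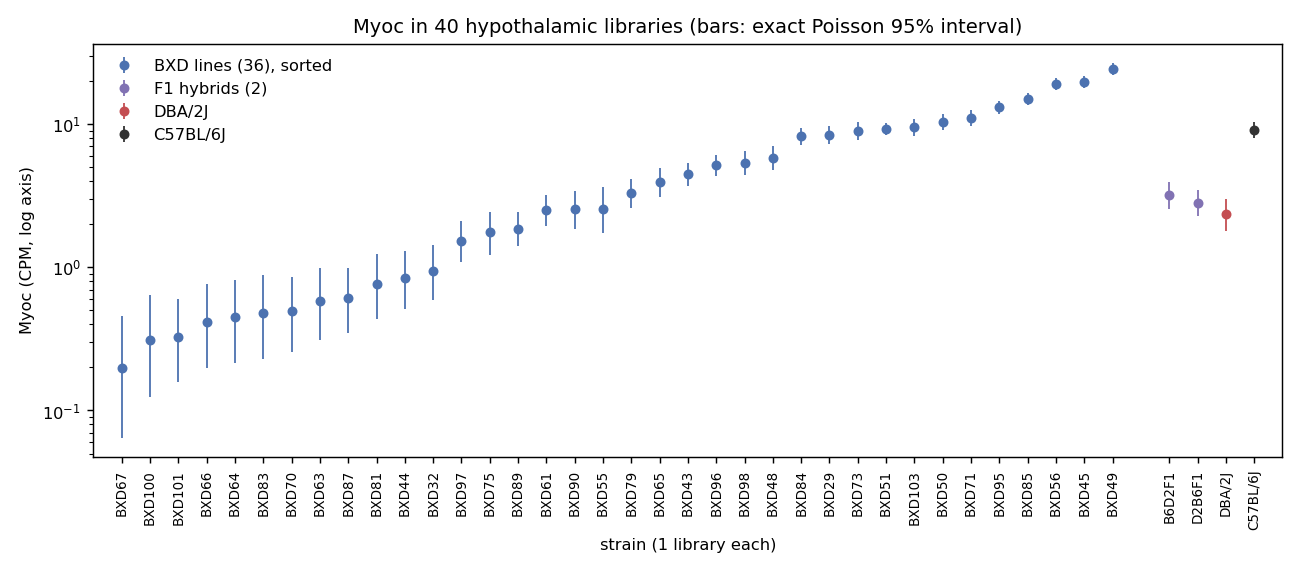
Myoc level in CPM (vertical log axis) in each of the 40 libraries, ordered as BXD lines sorted by level, F1 hybrids, DBA/2J and C57BL/6J. Points are single libraries and bars are exact Poisson 95% intervals. The lines range between 0.197 and 24.5 CPM, with no step of 1 log2 unit or more. They pass DBA/2J at 2.35 CPM and C57BL/6J at 9.18 CPM at both ends.

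Tyrp1 was near the limit of detection in every library. Over the 36 lines it had 0 CPM at the lowest, in BXD64, 0.163 CPM at the median and 0.577 CPM at the highest, in BXD50 with 13 reads. The mean was 0.206 ± 0.144 CPM (SD, n = 36), the median line had 4 reads, and 6 lines had 10 reads or more. The SD of the log2 level was 0.71, and counting alone would give 0.49. No gap was seen, the widest step being 0.21 log2 units.

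DBA/2J had 2 Tyrp1 reads, 0.0760 CPM (0.00920 to 0.274), and C57BL/6J had 7 reads, 0.278 CPM (0.112 to 0.573). The intervals overlapped, and the ratio of DBA/2J over C57BL/6J was 0.273 with an interval of 0.0277 to 1.43. B6D2F1 had 3 reads, 0.112 CPM (0.0232 to 0.329), and D2B6F1 had 10 reads, 0.306 CPM (0.147 to 0.563). Their ratio, B6D2F1 over D2B6F1, was 0.367 (0.0650 to 1.43). Neither the parents nor the hybrids could be told apart for Tyrp1 at this depth, and 22 lines lay between the parents.

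**Figure D3:**
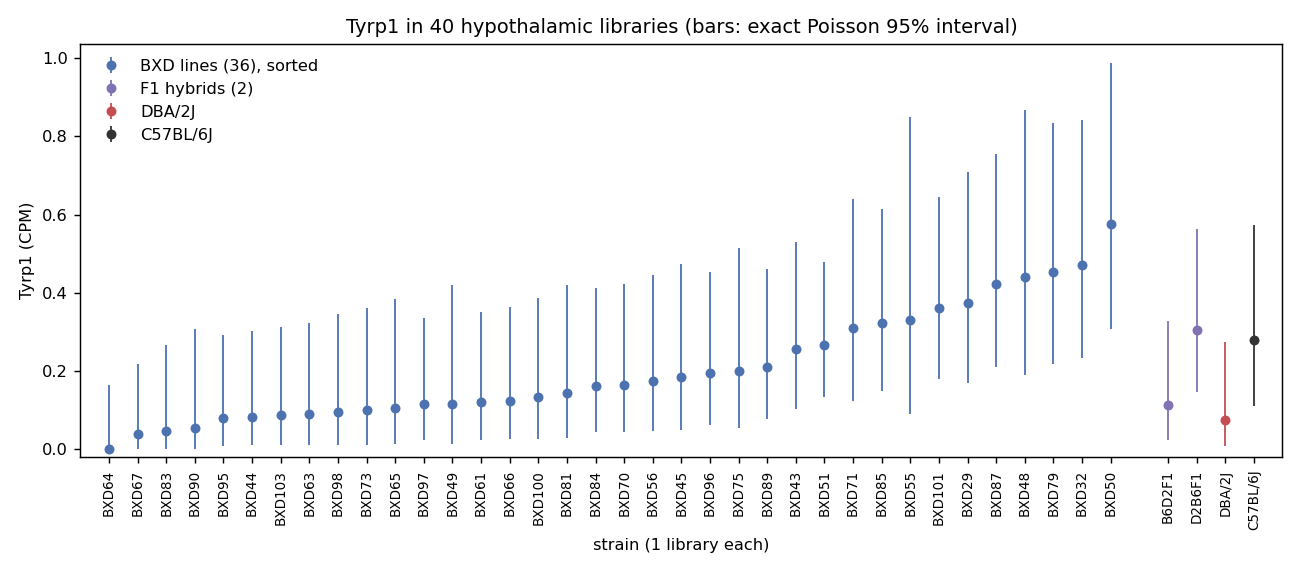
Tyrp1 level in CPM (vertical axis) in each of the 40 libraries, ordered as BXD lines sorted by level, F1 hybrids, DBA/2J and C57BL/6J. Points are single libraries and bars are exact Poisson 95% intervals, which overlap across most of the range between 0 and 0.577 CPM.

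The design sets the BXD lines against the parental and hybrid strains. None of the 3 genes passed that test, nor did any other gene. The lines carry the genomes of the same parents, and the wide spread over the lines enters the error. The test could therefore detect only large shifts of the mean, and its outcome does not show equal levels. Gpnmb averaged 1.11 ± 1.01 CPM in BXD lines and 0.937 ± 0.50 CPM in the 4 parental and hybrid libraries. Tyrp1 averaged 0.206 ± 0.144 CPM in BXD lines and 0.193 ± 0.116 CPM in the other 4. Myoc averaged 5.68 ± 6.28 CPM in BXD lines and 4.39 ± 3.22 CPM in the other 4 (all SD, n = 36 and 4), and for all 3 genes the ranges overlapped.

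The log2 differences, BXD minus the other 4, were 0.25 (SE 0.84) for Gpnmb, 0.083 (SE 0.48) for Tyrp1 and 0.39 (SE 0.88) for Myoc, each with an adjusted p of 1.00 by edgeR's quasi-likelihood test with Benjamini-Hochberg adjustment over all genes. That test called 0 of 16198 genes (0.00%), and 163 had an unadjusted p under 0.05. This is a smaller share than the 0.05 expected if no gene differed. DESeq2 also called 0, and 206 genes had an unadjusted p under 0.05 there. The Myoc difference was 0.18 without DBA/2J and 1.03 without C57BL/6J. The sign for Gpnmb turned without DBA/2J, to -0.020, and the sign for Tyrp1 turned to -0.17 without DBA/2J and to -0.099 without B6D2F1.

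The hybrids, heterozygous on the autosomes wherever the parents differ, were also set against the 38 inbred libraries. Gpnmb averaged 0.967 ± 0.329 CPM in hybrids and 1.10 ± 0.996 CPM in inbred strains. Tyrp1 averaged 0.209 ± 0.137 CPM in hybrids and 0.204 ± 0.142 CPM in inbred strains, and Myoc 3.00 ± 0.261 CPM in hybrids and 5.69 ± 6.16 CPM in inbred strains (all SD, n = 2 and 38). The hybrid values lay inside the inbred range for all 3 genes.

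The log2 differences, hybrid minus inbred, were -0.19 (SE 1.14) for Gpnmb, 0.061 (SE 0.62) for Tyrp1 and -0.92 (SE 1.28) for Myoc, each with an adjusted p of 1.00 in edgeR. Over all genes 0 of 16434 were called (0.00%), and 109 had an unadjusted p under 0.05. This is a smaller share than the 0.05 expected if no gene differed. DESeq2 also called 0, and 133 genes had an unadjusted p under 0.05 there. Without D2B6F1 1 gene was called, Ide, which encodes insulin-degrading enzyme and is named here after its values were seen, and the differences became 0.13 for Gpnmb and -0.84 for Tyrp1. In that fit B6D2F1 stands alone, its spread is assumed to be that of the 38 inbred libraries, and the call has no replicate check.

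Genes that followed Gpnmb across the lines were sought by fitting every gene on the log2 Gpnmb level of the 36 lines. In edgeR 4 of 15738 genes were called at an adjusted p under 0.05, or 0.0254%, with 3 rising and 1 falling as Gpnmb rose. Of all tested genes 1022 had an unadjusted p under 0.05, a share slightly above the 0.05 expected if no gene followed Gpnmb. DESeq2 called 18, the 4 of edgeR among them, with 7 rising and 11 falling. The 4 called by edgeR all lie on chromosome 6, as Gpnmb does, where 771 genes were tested. The lines with low Gpnmb also tended to have less Dfna5, Atp6v0e2 and AI854703 mRNA and more Fam221a mRNA.

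Dfna5, the symbol in the table for gasdermin E, a pore-forming protein of lytic cell death, ranged over 10.2 to 18.8 CPM across the lines, with a mean of 14.6 ± 2.47 CPM (SD, n = 36). DBA/2J had 13.3 CPM and C57BL/6J 16.5 CPM. Its slope was 0.11 log2 units per log2 unit of Gpnmb (SE 0.013, edgeR adjusted p = 2.09e-06). Of the 15 lines lowest in Dfna5, 14 were among the 15 lines below the Gpnmb gap.

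Fam221a, whose function is little known, was the gene called as falling by edgeR. It ranged over 0.996 to 3.23 CPM, with 2.47 CPM in DBA/2J and 2.11 CPM in C57BL/6J, and had a slope of -0.13 (SE 0.023, edgeR adjusted p = 0.00410). Of the 15 lines highest in Fam221a, 14 lay below the Gpnmb gap. Atp6v0e2, which encodes a subunit of the proton pump that acidifies vesicles, averaged 292 ± 50.2 CPM and had a slope of 0.093 (SE 0.015, edgeR adjusted p = 0.00263). AI854703 averaged 44.1 ± 5.03 CPM and had a slope of 0.059 (SE 0.011, edgeR adjusted p = 0.00706). For each of Atp6v0e2 and AI854703, 11 of the 15 lowest lines lay below the gap. The called genes were picked by their fit on Gpnmb over the same lines. Their counts of lines below the gap therefore describe that fit and give no further support.

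The 4 genes stood close to Gpnmb in gene order. In the GENCODE annotation 199 tested genes of the chromosome come before Gpnmb. Atp6v0e2 was number 186, AI854703 number 191, Fam221a number 204 and Dfna5 number 207 of the 771 tested genes. Of the 10 annotated genes nearest to Gpnmb, 5 on each side, 6 were tested and 1, Fam221a, was called. Its neighbour Ccdc126 had a slope of -0.056 (SE 0.012) with an edgeR adjusted p of 0.119, which did not pass. Malsu1, next to Gpnmb, had a slope of -0.024 (SE 0.014, edgeR adjusted p = 0.829).

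Within the lines on one side of the gap the relation with Dfna5 did not pass its test, a check chosen after the fit had been seen. Among the 15 lines below the gap the Pearson r was 0.25 and the Spearman rho 0.21 (permutation p = 0.365 and 0.441). Each of those lines held 4 Gpnmb reads or fewer, and 4 of them held 0. That side therefore cannot decide whether Gpnmb and Dfna5 vary together. Among the 21 lines above the gap r was 0.26 and rho 0.33 (permutation p = 0.257 and 0.143). After Benjamini-Hochberg adjustment over the 11 relations computed, none of the 4 p-values passed.

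The genes whose own gap divided the lines most like that of Gpnmb were few and not close. Of the 68 other genes with a gap, the best was Pttg1, the cell-cycle protein securin, which put 26 of 36 lines on the matching side in the opposite direction. Acp1, a phosphatase, matched in 25 lines in the same direction, and 2610507I01Rik in 25 lines in the opposite direction. The median over the 68 genes was 20 lines and the lowest 18. For each gene the direction with more matches was taken, so 18 of 36 lines is the lowest value possible. Ccnb1ip1, Chrna3, Tnni1 and Tnnt2 matched in 24 lines each, and A230057D06Rik, C920006O11Rik and Mcm6 in 23. None of these 10 genes lies on chromosome 6.

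Genes that followed Myoc were sought by the same fit on log2 Myoc. In edgeR 15 of 15836 genes were called, or 0.0947%, with 10 rising and 5 falling as Myoc rose. Of all tested genes 865 had an unadjusted p under 0.05, a share near the 0.05 expected if no gene followed Myoc. Most of the called genes were not near Myoc, which is on chromosome 1, but on chromosome 2, where 9 of 1257 tested genes (0.716%) were called. On chromosome 1 there were 3 of 938 (0.320%), and further genes around Myoc fell short of the threshold, as given below. The others were Serpina3g on chromosome 12, Rpph1 on chromosome 14 and E030024N20Rik on chromosome 19. Without BXD67 and BXD49, the lines farthest from the median Myoc level, 7 were called, all among the 15, and 6 of them are on chromosome 2.

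Nek6, a kinase of mitotic spindle formation, ranged over 15.8 to 24.5 CPM across the lines, with 19.3 CPM in DBA/2J and 21.7 CPM in C57BL/6J. It had a slope of 0.057 log2 units per log2 unit of Myoc (SE 0.0099, edgeR adjusted p = 0.00937). Over the 36 lines Pearson's r with log2 Myoc was 0.71 and Spearman's rho 0.72, and r was 0.72 without BXD67 and BXD49.

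Entpd2, an ectonucleotidase that breaks down extracellular ATP, ranged over 6.32 to 26.2 CPM, with 12.9 CPM in DBA/2J and 19.2 CPM in C57BL/6J. Its slope was 0.19 (SE 0.036, edgeR adjusted p = 0.0114). Mrpl41, a protein of the mitochondrial ribosome, averaged 36.4 ± 5.24 CPM with 31.9 CPM in DBA/2J and 41.2 CPM in C57BL/6J, and had a slope of 0.072 (SE 0.014, edgeR adjusted p = 0.0114). D330023K18Rik had a slope of 0.13 (SE 0.024, edgeR adjusted p = 0.0112). These 4 were the genes of chromosome 2 that rose with Myoc.

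The other 5 called genes of chromosome 2 fell as Myoc rose. 1700001O22Rik had 4.37 CPM in DBA/2J and 2.43 CPM in C57BL/6J and a slope of -0.18 (SE 0.032, edgeR adjusted p = 0.00937). Tmem203, a membrane protein of the endoplasmic reticulum, had 10.1 CPM in DBA/2J and 6.40 CPM in C57BL/6J and a slope of -0.16 (SE 0.032, edgeR adjusted p = 0.0250). Armc3 had a slope of -0.16, Crat, the carnitine acetyltransferase of mitochondria, -0.053, and Dpp7, a dipeptidyl peptidase, -0.080, with edgeR adjusted p-values of 0.0112, 0.0388 and 0.0418. Without BXD67 and BXD49, Tmem203, Crat and Dpp7 were no longer called, with slopes of -0.16, -0.051 and -0.083. Along chromosome 2 the 9 genes ran between number 75 (Armc3) and number 335 (Nek6) of the 1257 tested genes.

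Near Myoc, 703 tested genes of chromosome 1 come before it. Kifap3, a subunit of kinesin-2, was number 710, Gm20743 number 720 and Sft2d2, a protein of vesicle transport, number 722. Gm20743 was scarce, at 0.410 ± 0.455 CPM, with 0.114 CPM in DBA/2J and 0.636 CPM in C57BL/6J, and had the steepest slope of the 15, 0.68 (SE 0.12, edgeR adjusted p = 0.00937). Sft2d2 had 26.9 CPM in DBA/2J and 43.7 CPM in C57BL/6J and a slope of 0.16 (SE 0.033, edgeR adjusted p = 0.0337). Kifap3 had a slope of 0.068 (SE 0.014, edgeR adjusted p = 0.0337). Without BXD67 and BXD49, Sft2d2 and Kifap3 were no longer called, with slopes of 0.16 and 0.067. Other genes in this part of chromosome 1 fell short of the threshold. Among them were Gas5 (number 689, edgeR adjusted p = 0.0966), Rfwd2 (number 679, 0.101) and Tada1 (number 737, 0.101). On chromosome 2, Gm13375 (number 81) also fell short, with an edgeR adjusted p of 0.0582. The calls alone therefore do not show that the genes around Myoc follow it less than those of chromosome 2.

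Of the 10 annotated genes nearest to Myoc, 8 were tested and 0 were called by edgeR. Fmo2, a flavin-containing monooxygenase 5 genes away, came nearest. It had 8.70 CPM in DBA/2J and 3.42 CPM in C57BL/6J, the opposite order to Myoc, and a slope of -0.30 (SE 0.079, edgeR adjusted p = 0.201). Vamp4, the gene next to Myoc, which encodes a vesicle fusion protein, had a slope of 0.020 (SE 0.0087, edgeR adjusted p = 0.836).

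Of the called genes elsewhere, Serpina3g, a serine protease inhibitor, had a slope of 0.26 (SE 0.054, edgeR adjusted p = 0.0337). Rpph1, the RNA of ribonuclease P, which carries no poly(A) tail, had a slope of 0.56 (SE 0.12, edgeR adjusted p = 0.0388) and varied between 0.171 and 9.56 CPM. E030024N20Rik had a slope of 0.34 (SE 0.072, edgeR adjusted p = 0.0388). Without BXD67 and BXD49 none of these 3 was called, with slopes of 0.24 for Serpina3g, 0.56 for Rpph1 and 0.31 for E030024N20Rik.

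**Figure D4:**
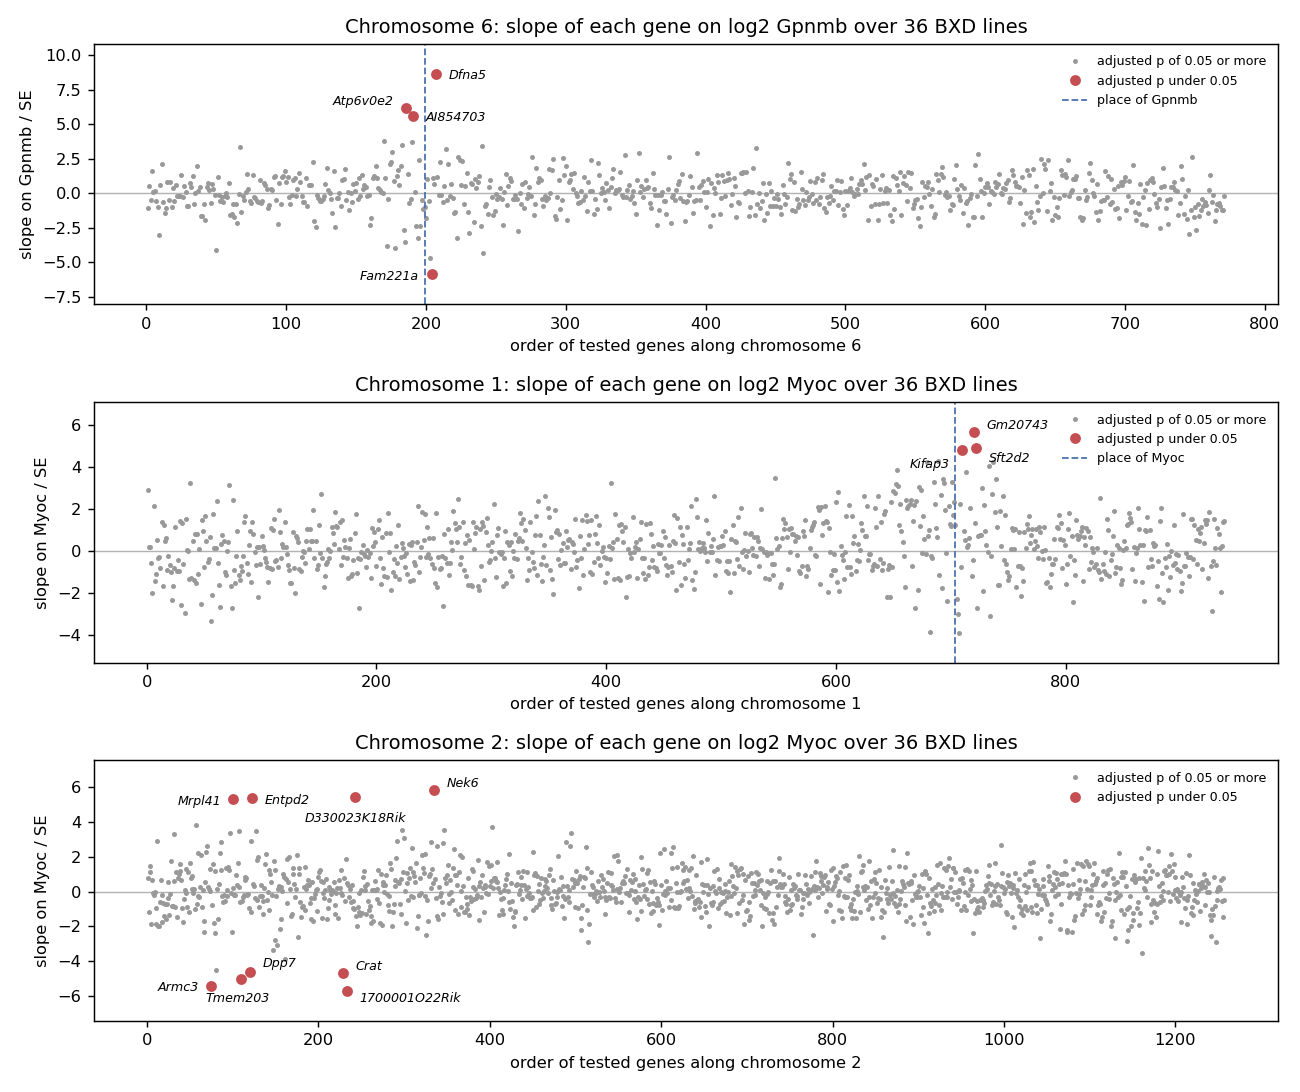
Slope divided by its SE (vertical axis) for each tested gene on chromosome 6 with Gpnmb and on chromosomes 1 and 2 with Myoc, against the order of tested genes along the chromosome. Red points have an edgeR adjusted p under 0.05 and the dashed line marks the gene fitted on. The 4 genes called with Gpnmb stand beside it, and 9 of the 15 called with Myoc stand in the first part of chromosome 2, which does not hold Myoc.

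By rank correlation over the 36 lines, 14486 genes averaging 1 CPM or more were ranked for rising with Myoc. Highest were Nek6 (rho 0.72), D330023K18Rik (0.69), Entpd2 (0.65), Mrpl41 (0.64) and Ehmt1 (0.61), all on chromosome 2. Genes that fell as Myoc rose were left out of this list. Of these, 1700001O22Rik (rho -0.69), Armc3 (-0.63) and Tmem203 (-0.63) had a rho larger in size than that of Ehmt1. Then came Barx2 (0.58, chromosome 9), Zfp607 (0.58, chromosome 7), Got2 (0.56, chromosome 8), Copg2 (0.54, chromosome 6) and Mapkap1 (0.53, chromosome 2). Serpina3g (rho 0.66) and Gm20743 (rho 0.62), on other chromosomes, averaged less and so were not ranked. Ehmt1, a histone methyltransferase, was not among the genes called by the fit. No such list was made for Tyrp1, since its median count was 4 reads.

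**Figure D5:**
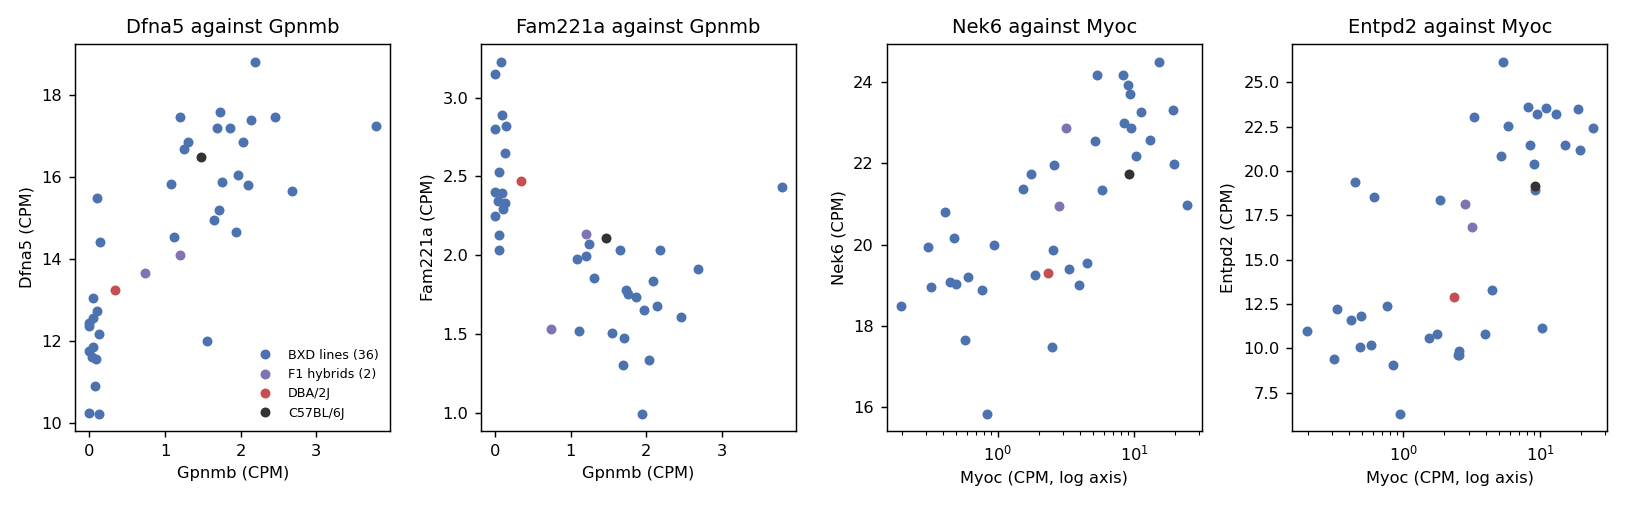
Levels in CPM of Dfna5 and Fam221a against Gpnmb, and of Nek6 and Entpd2 against Myoc (log axis), with 1 point per library. BXD lines are blue, F1 hybrids purple, DBA/2J red and C57BL/6J black. The lines with Gpnmb up to 0.139 CPM include 14 of the 15 lowest in Dfna5, and Nek6 and Entpd2 are higher where Myoc is higher. The genes shown were picked by their fits over the same lines.

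No relation among the 3 genes passed its test. In the fits on all genes Myoc had a slope on Gpnmb of -0.045 (SE 0.16, edgeR adjusted p = 0.988), and Gpnmb had a slope on Myoc of -0.13 (SE 0.14, edgeR adjusted p = 0.974). Myoc and Tyrp1 had Pearson's r of 0.26 and Spearman's rho of 0.23 over the 36 lines (permutation p = 0.124 and 0.176), and r of 0.24 without the 2 lines farthest from the median Myoc level. Because Gpnmb parts the lines, its relations were taken on each side of the gap. Among the 21 lines above it, Gpnmb and Myoc had r of -0.49 and rho of -0.54 (permutation p = 0.0244 and 0.0124), which did not pass after adjustment over the 11 relations (0.269 and 0.137). Without the 2 farthest lines that r was -0.34.

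Among the 15 lines below the gap Gpnmb and Myoc had r of 0.31 (permutation p = 0.257, adjusted 0.566). Gpnmb and Tyrp1 had r of 0.093 below the gap and -0.20 above it (permutation p = 0.740 and 0.397). With 4 Gpnmb reads or fewer in each line below the gap, the relations of Gpnmb there cannot decide whether these genes vary together. Library totals had r of -0.073 with Myoc, 0.11 with Tyrp1, and 0.34 below and -0.028 above the gap with Gpnmb, none with an adjusted p under 0.05.

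The cell types and pathways around these genes were read through 9 lists, and in none of them did a gene pass the edgeR fit on Gpnmb or on Myoc. The members named from each list, with their values, were picked after those values were seen. Several defining pigment-cell genes were barely present. Of the 15 genes of the pigment cell and melanosome list, 9 were tested. Tyr, the first enzyme of melanin synthesis, had a median of 2 reads over the lines, Mlana 0.5 and Gpr143 1. Dct, the melanin enzyme related to Tyrp1, had a median of 8.5 reads, and Pmel, the fibril protein of melanosomes, 20.5. Other members of the list were not scarce. Mitf had a median of 198 reads (8.74 CPM) and Slc24a5 164 reads (7.01 CPM). The list's summed level was 111 to 162 CPM over the lines, 130 CPM in DBA/2J and 143 CPM in C57BL/6J. Kit, Sox10 and Rab27a gave most of that sum, with medians of 49.1, 40.5 and 24.5 CPM. The sum therefore does not measure the scarce genes named above.

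With Gpnmb, 7 of the 9 tested pigment genes had a slope above 0, with a median of 0.026 against 0.00065 over all genes. Pmel had the smallest adjusted p, with a slope of 0.072 (SE 0.033, edgeR adjusted p = 0.724). Of the microglia and phagocyte genes, the brain cells in which Gpnmb is known, 14 of 17 had a slope above 0 with a median of 0.016. Cx3cr1, the fractalkine receptor, had a slope of 0.029 (SE 0.012, edgeR adjusted p = 0.626). All 10 oligodendrocyte genes had a slope above 0 with a median of 0.032, led by Mbp, myelin basic protein, at 0.060 (SE 0.019, edgeR adjusted p = 0.428). Of the 10 hypothalamic genes 1 had a slope above 0, with a median of -0.013.

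The 18 meningeal and fibroblast genes had a median slope of 0.0077, with 10 above 0. The 14 astrocyte genes had a median of -0.00072, with 7 above 0, and the 19 human glaucoma genes a median of -0.0048, with 8 above 0. The 8 olfactomedin genes had a median of 0.0059, with 5 above 0. The 8 choroid plexus genes had a median of 0.024, with 7 above 0, and among them Ttr, transthyretin, had a slope of 1.00 (SE 0.29, edgeR adjusted p = 0.375). The summed level of this list had a median of 112 CPM over the lines but reached 967 CPM in the highest. How many lines the Ttr slope rests on was not tested.

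With Myoc, 17 of the 18 meningeal and fibroblast genes had a slope above 0, with a median of 0.043 against -0.00029 over all genes. The summed level of that list ran between 195 and 1519 CPM over the lines, with 488 CPM in DBA/2J and 551 CPM in C57BL/6J. Its smallest adjusted p was that of Ptgds, prostaglandin D synthase, with a slope of 0.12 (SE 0.064, edgeR adjusted p = 0.930). All 10 hypothalamic genes had a slope below 0, with a median of -0.031, and Pmch, melanin-concentrating hormone, had a slope of -0.044 (SE 0.023, edgeR adjusted p = 0.918). The part of meninges in the spread of Myoc was not tested.

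Of the 8 olfactomedin relatives of Myoc, 7 had a slope above 0, with a median of 0.012. Olfml2a had the smallest adjusted p, with a slope of 0.096 (SE 0.037, edgeR adjusted p = 0.719). The family's most abundant member, Olfm1, ranged over 270 to 343 CPM with 311 CPM in DBA/2J and 309 CPM in C57BL/6J. The other human glaucoma genes had 9 of 19 slopes above 0 and a median of -0.00032. Optn, an autophagy receptor, ranged over 38.7 to 55.2 CPM, and Cyp1b1, a cytochrome P450, over 1.72 to 7.51 CPM.

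The other lists stood as follows with Myoc. Of the 9 pigment genes 4 had a slope above 0, with a median of -0.0012. The 18 microglia and phagocyte genes had a median slope of 0.0045 with 13 above 0, and the 14 astrocyte genes -0.00078 with 7 above 0. The 10 oligodendrocyte genes had a median of 0.019 with 9 above 0. The 8 choroid plexus genes had a median of -0.033 with 1 above 0, and Ttr a slope of -1.19 (SE 0.35, edgeR adjusted p = 0.350). Here too, how many lines the Ttr slope rests on was not tested.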

How the data were processed

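RNA was read as stranded mRNA libraries in single-end reads, per the labels' protocols. Per the submitters' processing notes, TopHat2 2.0.8, HTSeq 0.5.4p3 and DESeq were used with genome build mm9. The authors deposited raw read counts per gene symbol, used here, and a normalized signal table of 15251 symbols, used only as an alternative. CPM were computed from the counts with TMM factors in edgeR 4.0.16 (R 4.3.3). Intervals are exact Poisson at 95%. Models were edgeR quasi-likelihood fits on all genes left by filterByExpr, with Benjamini-Hochberg adjustment and a threshold of 0.05, and slope SEs follow from the F statistic. The log2 levels used a prior count of 2. DESeq2 1.42.0, other factors, no filter, the normalized table and left-out libraries were alternatives. Correlations used 100000 permutations (SciPy 1.17.1). Fits were tested on simulated data with slopes larger than most of the called ones, so that test does not cover slopes of the called size. Gene order, transcripts and lengths came from GENCODE on GRCm38, with 23844 symbols placed, while the counted features are on mm9. The genes named are the 3 members, up to 10 called genes of smallest p per direction, the 10 most alike, and neighbours. The members, lists and rules were chosen with earlier results of these data known.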

Additional observations from a re-analysis of the deposited data

How the results depend on the processing

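DESeq2 called 18 genes with Gpnmb and 36 with Myoc, each including all genes called by edgeR, and without the 2 lines farthest from the median (BXD67 and BXD49) 7 genes were called with Myoc. With no filter 6 genes were called with Gpnmb, and 14 with Myoc when its level came from the normalized table, Dpp7 being lost. Leaving out each hybrid in turn, hybrid against inbred gave 0 to 1 genes, and leaving out each of the 4 parental and hybrid libraries in turn, BXD against the rest gave 0. No BXD line was left out of these fits. The BXD difference was then -0.020 to 0.54 for Gpnmb, -0.17 to 0.42 for Tyrp1 (-0.099 without B6D2F1) and 0.18 to 1.03 for Myoc. The hybrid difference was -0.57 to 0.13 for Gpnmb, -0.84 to 0.56 for Tyrp1 and -1.01 to -0.835 for Myoc. The signs for Gpnmb and Tyrp1 thus turned with 1 library, while those for Myoc did not. The cause was not tested. The genes that lost their call were 8, all fitted on Myoc. The ratios of the parents, the Gpnmb gap and the absence of a gap in Myoc kept their direction and side under the alternatives run. The r of Gpnmb with Tyrp1 below the gap turned to -0.038 without the 2 farthest lines. No paired analysis was possible because no strain has a repeat library and no replicate numbers pair the groups. Depth limits Tyrp1, with a median of 4 reads, and the low Gpnmb lines, with 4 reads or fewer.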
